A study of Mus musculus with 30 samples.

Results

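Gene expression of the sclera, the collagen-rich outer wall of the eye, at postnatal week 2 was set against the weeks on either side of it. The question was which genes turned at this age, that is, lay lower or higher in week 2 than in both week 1 and week 3. The mice were untreated Balb/cJ animals, an albino inbred strain, and each Mouse Gene 1.0 ST array held RNA of 1 single sclera, with 6 arrays deposited at each of 1, 2, 3, 6 and 8 weeks of age. No source used here states their sex. Values are deposited log2 signals, so a difference of 1 is a 2-fold change, and each gene stands by its brightest transcript cluster (the probes of 1 transcribed locus) among those with 1 gene symbol. The values deposited for week 2 replicate 4 equalled the mean of the other week 2 arrays within 0.001 at 35556 of 35556 transcript clusters. Week 2 is therefore represented by 5 arrays, and its values are listed in the order of replicates 1, 2, 3, 5 and 6. A gene is described here when all week 2 arrays lay below, or all above, each of the 12 arrays of weeks 1 and 3. Of 19938 genes, 1489 (7.47%) lay below both flanking weeks and 1051 (5.27%) lay above both. These arrays chose the genes, so the values of weeks 1, 2 and 3 are given for them as a description, with no test. Genes that overlapped are named by the size of the same difference, so a p-value given for one, adjusted over all transcript clusters, states its call and is no independent support.

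The retinal pigment epithelium recycles the light-sensitive chromophore for the photoreceptors, and with the melanocytes of the choroid it makes melanosomes, the organelles of pigment. In albino mice tyrosinase is inactive, while the other melanosome proteins are still made. Both layers lie close to the sclera, as do the retina, eye muscle and the epithelium of the ocular surface, and mice open their eyes near the end of the second postnatal week. Type I collagen, the main fibre of the sclera, was bright at every age: Col1a1 averaged 12.23 in week 2, against 13.01 in week 1 and 12.79 in week 3, and 11.96 and 12.30 in weeks 6 and 8.

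The genes below both flanking weeks were brighter than the genes above and reached larger differences. Their median difference between week 2 and the mean of weeks 1 and 3 was -0.73, and 392 of them differed by at least 1 and 56 by at least 2. The genes above both weeks had a median difference of 0.55, and 17 differed by at least 1. Over all genes the median difference was 0.01. Calls below are from limma, with a Benjamini-Hochberg adjusted p of at most 0.05 over all transcript clusters and a change of at least 2-fold. By this rule 786 genes (3.94%) were lower in week 2 than the mean of weeks 1 and 3 and 202 (1.01%) were higher. Against each of the 2 weeks, 315 genes (1.58%) were lower and 21 (0.105%) were higher. The genes without overlap included 238 of these 315 and 7 of these 21. The distance was larger from week 1 than from week 3 in 1044 (70.1%) of the genes below and in 937 (89.2%) of those above. Week 2 replicate 5 was the week 2 array nearest to the flanking weeks for 801 (53.8%) of the genes below and 540 (51.4%) of those above. Without it 2196 genes lay below and 2133 above. At the limit of no overlap, Mapkbp1 (below) and Nodal (above) were just inside, with differences of -0.50 and 0.47, and Lats1 and Foxb1 were just outside, with differences of -0.59 and 0.45.

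**Figure D1:**
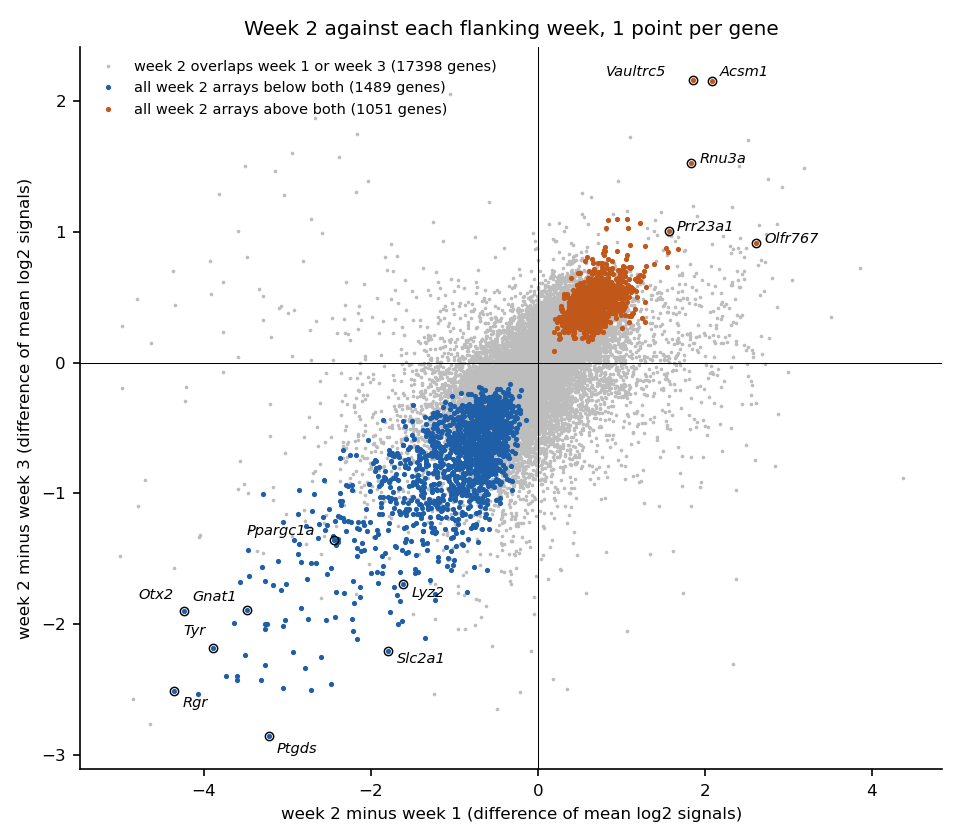
Each point is 1 gene, placed by its mean log2 signal in week 2 minus that in week 1 (horizontal axis) and in week 2 minus that in week 3 (vertical axis). The 1489 genes with all week 2 arrays below both flanking weeks (blue) extend to -4.36 and -2.51 for Rgr, farther from the origin than most of the 1051 genes above (orange).

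The spread of the arrays moved with week 2. The interquartile range of the log2 signals on an array lay between 2.22 and 2.56 in week 2, with a mean of 2.36, against a mean of 2.72 and a lowest value of 2.60 over the arrays of weeks 1 and 3 (exact permutation test, two-sided p = 0.000323, n = 5 and 12 arrays). The genes described were not spread evenly over the signal range. With the transcript clusters in 10 equal classes of mean signal, 13.4% of the brightest class lay below both flanking weeks and 3.63% above, while in class 3 counted from the dimmest 0.619% lay below and 8.58% above. The median mean signal was 7.58 for the genes below and 5.42 for those above, against 6.54 for all genes. With the arrays scaled to a common interquartile range, 870 of the genes below and 493 of those above still did not overlap, and under quantile normalization 839 and 545 did not. With the interquartile range as a covariate in the fit, 199 genes were called lower in week 2 than the mean of weeks 1 and 3 and 257 higher. Since no week 2 array was as wide as the arrays of weeks 1 and 3, spread and age cannot be fully told apart.

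**Figure D2:**
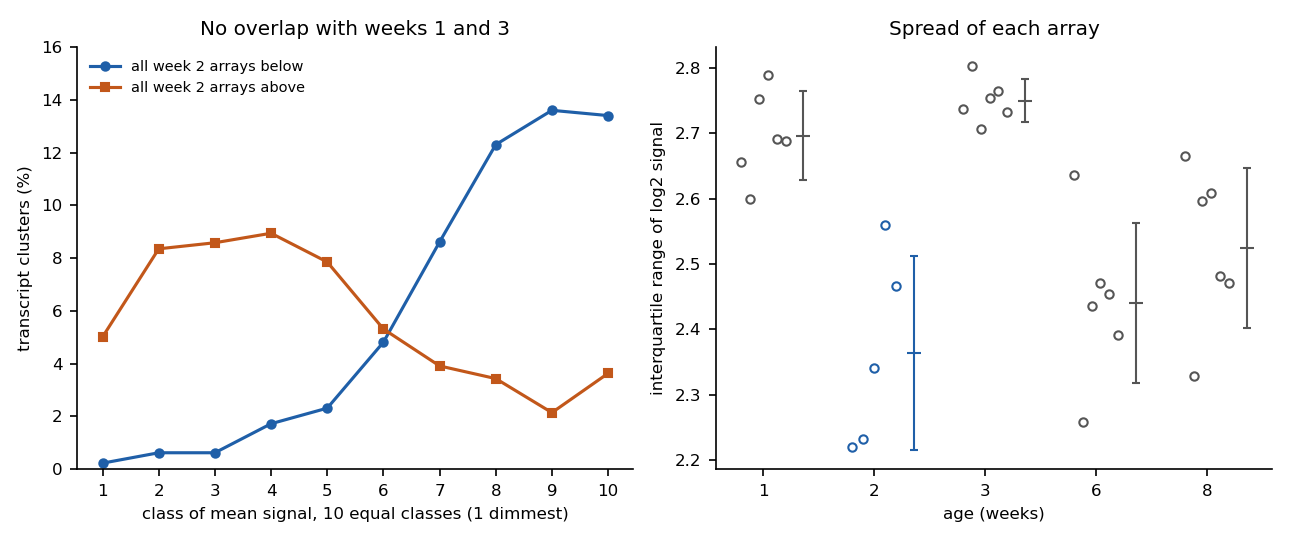
Left, percentage of transcript clusters with all week 2 arrays below or above those of weeks 1 and 3 (vertical axis) in each of 10 equal classes of mean signal (horizontal axis). Right, interquartile range of the log2 signal of each array (vertical axis) by age in weeks (horizontal axis), with circles for single arrays and bars for mean and SD; the week 2 arrays lie between 2.22 and 2.56 and those of weeks 1 and 3 at 2.60 or above.

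Genes of the retinal pigment epithelium held some of the deepest week 2 minima. Of the genes measured from a list of this epithelium and the visual cycle, 9 of 17 (52.9%) lay below both flanking weeks and none above. In the fit 16 were lower than the mean of weeks 1 and 3, 14 were lower than each week, and the median difference of the list was -2.07. Rgr, an opsin of the pigment epithelium that takes part in the recycling of the chromophore, read 6.09, 5.48, 6.59, 8.25 and 6.57 in week 2, against a lowest, median and highest value of 9.54, 11.12 and 11.54 in week 1 and of 8.37, 9.20 and 9.43 in week 3. The week 2 mean differed from that of the flanking weeks by -3.43 ± 0.47 (SE), a 10.8-fold lower signal, and only replicate 5 came near the flanking arrays. Rdh5, a retinol dehydrogenase that completes the chromophore, read 5.30, 5.16, 5.87, 6.93 and 5.69 in week 2, against 8.16, 9.66 and 10.19 in week 1 and 7.76, 8.21 and 8.51 in week 3, a difference of -3.07 ± 0.34. Kcnj13, a potassium channel of the apical membrane of this epithelium, read 5.74, 5.55, 6.85, 6.80 and 6.43 in week 2, against 8.45, 9.56 and 10.36 in week 1 and 7.93, 8.23 and 8.81 in week 3, a difference of -2.62 ± 0.38. The week 2 arrays lay under every flanking array by 0.82 for Rdh5 and by 1.08 for Kcnj13.

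Further members of this list were Stra6, the receptor that takes up retinol (-2.09 ± 0.23), Rdh10, a retinol dehydrogenase (-2.07 ± 0.27), and the transcription factor Mitf (-1.90 ± 0.30), whose dimmer transcript cluster also lay below both weeks. Rpe65, the isomerase of the visual cycle, and Ttr, a carrier of thyroxine and of retinol-binding protein, had larger differences but overlapped. Rpe65 read 3.28, 3.64, 4.93, 7.02 and 4.90 in week 2, against 7.89 to 10.20 in week 1 and 6.69 to 7.87 in week 3, so that replicate 5 alone stood within the week 3 range. In the fit Rpe65 fell by 3.70 ± 0.56 (adjusted p = 6.2e-06) and Ttr by 3.71 ± 0.47 (adjusted p = 5.7e-07). Without replicate 5, 15 of the 17 genes lay below both weeks, and under quantile normalization 5 did. With the interquartile range as a covariate 3 were called lower, with a median of -1.22. In RNA of a whole tissue, fewer cells of a type and less RNA per cell cannot be told apart.

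Melanocyte and melanosome genes had a larger share below both flanking weeks than any other list in the plot of the gene lists, 17 of 25 (68%), with none above. In the fit 16 were lower in week 2 than the mean of weeks 1 and 3, and the median difference was -1.78. Tyr, the first enzyme of melanin synthesis, read 4.89, 3.34, 6.36, 5.57 and 4.14 in week 2, against 7.95, 8.57 and 10.08 in week 1 and 6.66, 6.99 and 7.56 in week 3, a difference of -3.04 ± 0.38. Tyrp1, a melanosomal enzyme related to tyrosinase, read 7.71, 6.39, 9.39, 9.21 and 8.06 in week 2, against 10.98, 11.76 and 12.48 in week 1 and 10.03, 10.59 and 11.07 in week 3, a difference of -3.00 ± 0.41. Replicate 3 was the highest and replicate 2 the lowest week 2 array for both enzymes. Pmel, the fibril protein on which melanin is laid down, read 7.91, 5.64, 9.02, 8.22 and 6.97 in week 2, against 10.43, 11.16 and 11.99 in week 1 and 9.34, 10.01 and 10.62 in week 3, a difference of -3.02 ± 0.39. Slc24a5, an ion exchanger needed for pigmentation, differed by -2.79 ± 0.36, Gpnmb, a membrane glycoprotein of melanosomes and macrophages, by -2.77 ± 0.34, and Dct, the dopachrome tautomerase, by -2.65 ± 0.36. At the low end, the neural crest factor Sox10 lay below with a difference of -0.73 ± 0.13. Myo7a, a myosin of the pigment epithelium, overlapped and fell by 1.12 ± 0.18 (adjusted p = 1e-05). With the interquartile range as a covariate 9 genes of the list were called lower, and 14 had no overlap with the arrays scaled to a common range.

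The promoters of 4 pigment genes and of Rbp3, a photoreceptor gene described below, are shown because these genes lay below both flanking weeks and hold motifs of factors that were measured. They are the 250 bases before the transcript start, from RefSeq, build GRCm38.p6, written 5' to 3' on the strand of the gene. Capitals mark a pair of motifs, searched on both strands. The M-box, which MITF binds in pigment cell promoters and which contains an E-box, reads TCATGTG. On the opposite strand the M-box reads CACATGA. The bicoid core, which OTX2 and CRX bind, reads GGATTA. On the opposite strand the bicoid core reads TAATCC. The windows are chr7:87493513-87493762 (minus strand) for Tyr, chr4:80833963-80834212 (plus strand) for Tyrp1, chr2:125067877-125068126 (plus strand) for Slc24a5, chr14:118052247-118052496 (minus strand) for Dct and chr14:33953753-33954002 (plus strand) for Rbp3.
Tyr: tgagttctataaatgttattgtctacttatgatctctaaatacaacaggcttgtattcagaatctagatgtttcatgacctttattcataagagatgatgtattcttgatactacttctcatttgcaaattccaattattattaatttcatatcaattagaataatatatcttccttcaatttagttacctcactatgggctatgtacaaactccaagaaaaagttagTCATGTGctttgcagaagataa
Tyrp1: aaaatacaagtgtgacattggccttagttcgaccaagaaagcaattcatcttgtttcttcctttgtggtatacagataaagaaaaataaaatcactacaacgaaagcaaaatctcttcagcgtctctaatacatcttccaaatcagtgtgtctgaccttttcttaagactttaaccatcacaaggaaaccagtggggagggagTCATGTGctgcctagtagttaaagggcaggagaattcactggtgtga
Slc24a5: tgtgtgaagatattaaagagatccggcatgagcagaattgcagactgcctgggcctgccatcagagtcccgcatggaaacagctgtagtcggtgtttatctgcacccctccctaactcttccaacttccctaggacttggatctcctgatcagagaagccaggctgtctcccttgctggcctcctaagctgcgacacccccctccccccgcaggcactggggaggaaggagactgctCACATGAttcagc
Dct: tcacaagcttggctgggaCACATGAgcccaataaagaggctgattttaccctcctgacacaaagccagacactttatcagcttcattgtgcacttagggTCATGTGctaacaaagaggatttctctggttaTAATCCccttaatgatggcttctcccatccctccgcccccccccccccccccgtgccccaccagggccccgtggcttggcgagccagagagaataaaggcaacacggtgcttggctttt
Rbp3: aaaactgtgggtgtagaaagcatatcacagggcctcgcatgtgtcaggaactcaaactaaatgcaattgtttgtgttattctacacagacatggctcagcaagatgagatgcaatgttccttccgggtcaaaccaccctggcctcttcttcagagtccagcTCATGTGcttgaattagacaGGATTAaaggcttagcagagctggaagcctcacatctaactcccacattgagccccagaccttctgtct
The M-box began 22 bases before the start in Tyr, 47 in Tyrp1, 13 in Slc24a5, 89 in Rbp3, and 232 and 151 in Dct. The bicoid core began 119 bases before the start in Dct and 69 in Rbp3. Of 18 genes of the melanocyte list with a promoter in the table, 8 (44.4%) held an M-box. The share was no higher among those below both flanking weeks, 5 of 12 (41.7%). In the pigment epithelium list 1 of 14 (7.14%) held it. Of the 27025 genes with a promoter of this length 3.72% did, and of the 15563 of them that were measured here 2.94% did. The share was 3.51% among all genes below both flanking weeks and 3.58% among those above. The bicoid core was found in 11 of 31 phototransduction genes (35.5%). Its share was 7.21% of all genes with a promoter and 6.89% of those measured. It was 7.51% of the genes below and 5.32% of those above. A match describes these letters only, and binding was not measured.

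Genes of the light response of photoreceptors were lower in week 2 in most cases, while many overlapped a flanking array. Of 41 measured, 31 were lower in week 2 than the mean of weeks 1 and 3, 18 were lower than each week, and 8 (19.5%) lay below both without overlap, with a median difference of -1.59 over the list. Gnat1, the rod transducin, read 6.13, 7.34, 5.96, 7.02 and 8.09 in week 2, against 8.32, 11.06 and 11.80 in week 1 and 8.22, 8.77 and 9.62 in week 3, a difference of -2.69 ± 0.59. Rbp3, which carries retinoids between photoreceptors and pigment epithelium and stood outside the list, read 5.63, 6.90, 5.43, 6.61 and 7.35 in week 2, against 7.87, 10.49 and 11.40 in week 1 and 7.76, 8.29 and 9.27 in week 3, a difference of -2.81 ± 0.47. Replicate 6 was the highest week 2 array for both, unlike for the pigment genes above. Abca4, the retinoid transporter of the outer segment, differed by -2.62 ± 0.32, the outer segment tetraspanins Prph2 and Rom1 by -2.54 ± 0.44 and -2.17 ± 0.41, the phosphodiesterase subunit Pde6g by -2.31 ± 0.38 and Unc119, a trafficking factor of transducin, by -2.13 ± 0.34. Pdc (phosducin) and Rp1, a microtubule protein of the outer segment, overlapped. Pdc fell by 3.24 ± 0.51 (adjusted p = 9.9e-06) and Rp1 by 2.80 ± 0.49 (adjusted p = 3.1e-05), and against week 3 alone the difference of Rp1 was -0.89 (adjusted p = 0.18). Without replicate 6, 18 of the 41 genes lay below both weeks, and with the interquartile range as a covariate 3 were called lower.

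Otx2, the homeobox factor of pigment epithelium and photoreceptors, was among the deepest minima. It read 4.80, 5.22, 5.60, 6.28 and 5.72 in week 2, against 8.26, 10.05 and 10.25 in week 1 and 7.14, 7.35 and 7.91 in week 3, a difference of -3.07 ± 0.27 with a gap of 0.86 between the highest week 2 array and the lowest flanking array. Of 21 retinal transcription factors measured, Otx2 and Rax (-1.23 ± 0.23), a factor of eye development, lay below both weeks (9.52%). Hes5 lay above (4.76%). These shares were near the 7.47% and 5.27% of all genes. Crx and Neurod1, factors of photoreceptors and of neurons, overlapped and fell by 2.40 ± 0.40 (adjusted p = 1.7e-05) and 2.94 ± 0.45 (adjusted p = 6.1e-06). Of 31 genes of inner retinal neurons and Müller glia, 4 (12.9%) lay below. Among them were Trpm1, a channel of bipolar cells and melanocytes (-1.87 ± 0.23), and the lipid carrier Apoe (-1.17 ± 0.18). Rlbp1, the retinaldehyde carrier of Müller glia and pigment epithelium, overlapped and fell by 2.96 ± 0.38 (adjusted p = 7.3e-07). Of 29 genes of synaptic vesicles, 6 (20.7%) lay below and 1 (3.45%) lay above, the fusion protein Stx1a (0.30 ± 0.08). Those below included the vesicle proteins Sv2b (-2.45 ± 0.29), Sv2a (-1.82 ± 0.21) and Syp (-1.88 ± 0.37) and the glutamate transporter Slc17a7 (-2.09 ± 0.38).

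**Figure D3:**
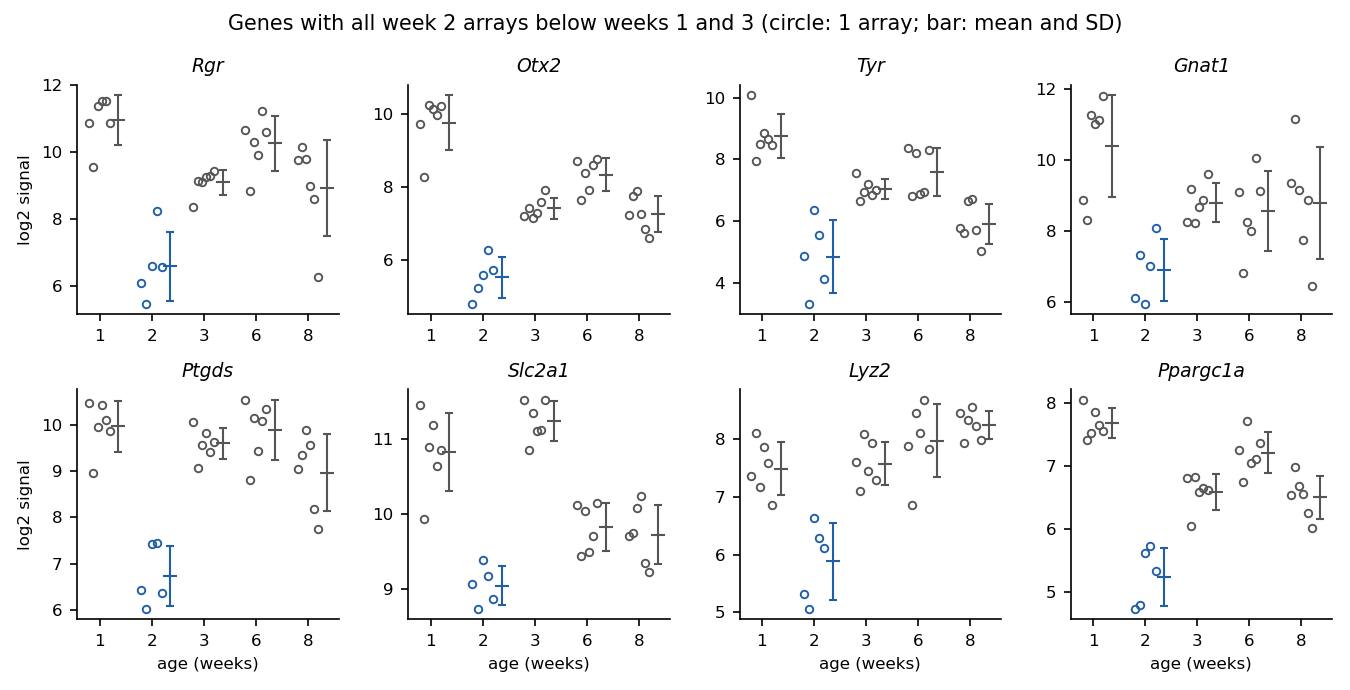
Log2 signal (vertical axes) of 8 genes with all week 2 arrays (blue) below those of weeks 1 and 3, by age in weeks (horizontal axes), with circles for single arrays and bars for mean and SD. The week 8 arrays lie at 7.93 to 8.55 for Lyz2, above all of its week 2 arrays, and at 6.27 to 10.16 for Rgr, where they overlap week 2.

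The mean over the 17 pigment epithelium genes was 5.94, 5.89, 6.49, 7.28 and 6.40 in week 2, against 7.91 to 9.51 in week 1 and 7.68 to 8.22 in week 3. That over the 25 melanocyte genes was 6.72, 6.26, 7.45, 7.35 and 6.83 in week 2, against 8.17 to 9.42 in week 1 and 7.86 to 8.48 in week 3. That over the 41 phototransduction genes was 5.51, 6.25, 5.34, 6.04 and 6.51 in week 2, against 6.75 to 9.16 in week 1 and 6.43 to 7.58 in week 3. Week 2 replicate 5 was highest for the pigment epithelium, replicate 3 for melanocytes and replicate 6 for photoreceptors, where it overlapped week 3. Markers of other tissues differed between the same arrays. The 35 genes of the fast sarcomere averaged 6.19 to 7.24 in week 2, against 7.78 to 9.86 in week 1 and 5.69 to 7.46 in week 3. The 22 lens genes averaged 5.96 to 7.93 in week 2, against 5.67 to 10.17 in week 1 and 5.65 to 5.85 in week 3. None of these fast sarcomere or lens genes lay below or above both flanking weeks. In the fit 18 of the 35 fast sarcomere genes and 1 of the 22 lens genes were lower than the mean of weeks 1 and 3, against 3.94% of all genes. None was called lower than week 3. The 40 endothelial and mural genes averaged 7.34 to 8.38 in week 2, against 7.86 to 8.43 in week 1 and 8.27 to 9.18 in week 3. Their part in the minima was not tested.

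**Figure D4:**
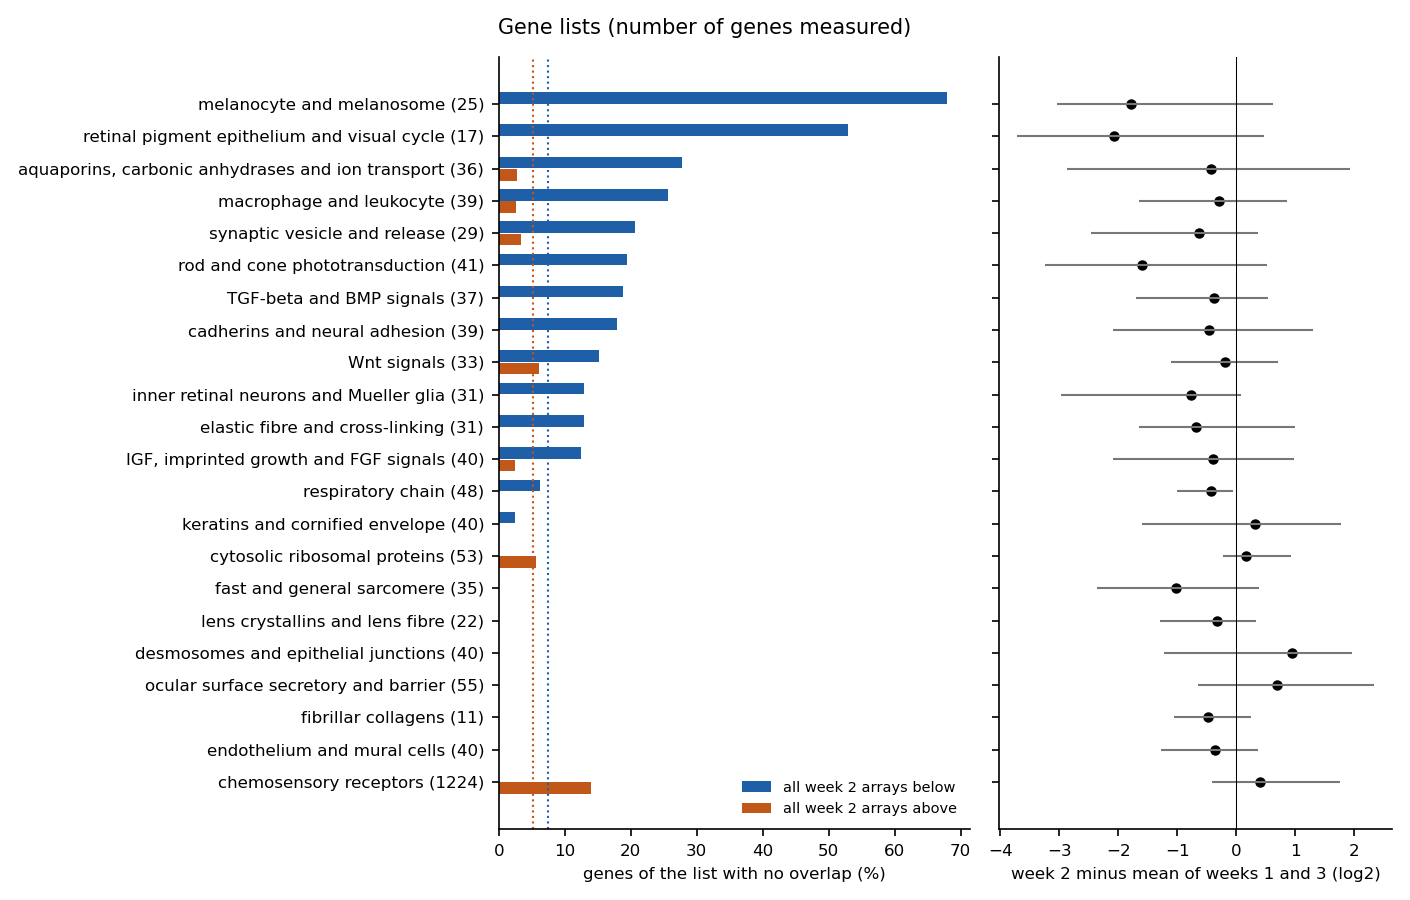
Left, percentage of the measured genes of 22 lists with all week 2 arrays below (blue) or above (orange) those of weeks 1 and 3, with dotted lines at the shares over all genes, 7.47% and 5.27%; right, median (point) and range (line) of the difference in log2 signal between week 2 and the mean of weeks 1 and 3. Melanocyte and pigment epithelium genes have 68% and 52.9% below, and desmosome and ocular surface genes have positive medians with no gene free of overlap.

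Genes of fluid and ion transport included deep minima, but the list was divided. Of aquaporins, carbonic anhydrases and ion transporters, 10 of 36 (27.8%) lay below both weeks and 1 above, the water channel Aqp2 (0.80 ± 0.09). Over the list the difference was under 0 in 19 of the 36 genes, with a median of -0.43, and 12 were called lower and 2 higher. Car14, a membrane-bound carbonic anhydrase, read 5.17, 5.43, 6.06, 6.30 and 5.66 in week 2, against 8.05, 9.37 and 9.87 in week 1 and 7.47, 8.09 and 8.31 in week 3, a difference of -2.87 ± 0.24. No week 2 array came within 1.17 of the flanking arrays. Car6, the secreted carbonic anhydrase, differed by -2.63 ± 0.35, the bicarbonate transporters Slc4a4 and Slc4a5 by -2.47 ± 0.32 and -2.42 ± 0.27, and the sodium pump subunits Atp1b1 and Atp1b2 by -2.15 ± 0.16 and -1.78 ± 0.32. Aqp5, a water channel of secretory and corneal epithelium, moved the other way. It rose by 1.93 ± 0.39 (adjusted p = 0.00017) against the mean of weeks 1 and 3, while its difference from week 3 alone was 0.35 (adjusted p = 0.53). With the interquartile range as a covariate 4 genes of the list were called lower, against 12 without it.

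Cltrn, Slc7a8 and Ptgds, which stood outside these lists, were also among the deep minima. Cltrn (collectrin), a partner of amino acid transporters, read 3.37, 3.24, 4.75, 5.25 and 3.99 in week 2, against 6.85, 8.45 and 8.85 in week 1 and 6.32, 6.70 and 6.92 in week 3, a difference of -3.30 ± 0.34. Slc7a8, an exchanger of neutral amino acids, differed by -2.87 ± 0.24. Ptgds, which makes prostaglandin D2, read 6.44, 6.03, 7.42, 7.45 and 6.36 in week 2, against 8.96, 10.03 and 10.46 in week 1 and 9.08, 9.60 and 10.06 in week 3, a difference of -3.04 ± 0.31. Its week 2 arrays were separated from the flanking arrays by 1.51.

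Some macrophage genes lay below both flanking weeks. Of macrophage and leukocyte genes, 10 of 39 (25.6%) lay below and 1 above, the B cell gene Ms4a1 (0.53 ± 0.09), while 6 were called lower in the fit (2 with the interquartile range as a covariate), the difference was under 0 in 25 genes and its median was -0.28. Lyz2, lysozyme of macrophages and neutrophils, read 5.31, 5.06, 6.64, 6.29 and 6.12 in week 2, against 6.86, 7.47 and 8.11 in week 1 and 7.11, 7.52 and 8.08 in week 3, a difference of -1.65 ± 0.25. The chains of complement C1q, made by tissue macrophages, differed by -0.98 ± 0.11 for C1qa, -1.02 ± 0.12 for C1qb and -1.35 ± 0.12 for C1qc, and Csf1r, the receptor on which macrophages depend, by -1.28 ± 0.14. Mrc1, the mannose receptor, overlapped and fell by 1.09 ± 0.18 (adjusted p = 1.4e-05). The list mean was 6.01, 5.88, 6.06, 5.99 and 5.97 in week 2, against 5.99 to 6.36 in week 1 and 6.18 to 6.45 in week 3. Complement C2 (-1.51 ± 0.21), the chaperone-like Clu (-1.27 ± 0.13) and B2m, the light chain of antigen-presenting molecules (-1.28 ± 0.18), also lay below both weeks. B2m was not typical of its list. Of 28 antigen presentation and interferon genes it was the only 1 below (3.57%), 11 had a difference under 0 and the median was 0.11. B2m is used as a reference gene, as is Tbp, the TATA-binding protein, which differed by -0.67 ± 0.09 without overlap.

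Among signalling genes, 7 of 37 (18.9%) of the TGF-beta and BMP list lay below both weeks and none above. Over all genes these shares were 7.47% and 5.27%. Sostdc1, an antagonist of BMP and Wnt signals, read 6.17, 6.30, 6.31, 6.78 and 6.26 in week 2, against 7.75, 8.82 and 9.23 in week 1 and 7.18, 7.44 and 7.59 in week 3, a difference of -1.70 ± 0.18. The ligand Bmp2 read 5.20, 4.95, 5.38, 5.40 and 4.89 in week 2, against 6.32, 6.89 and 7.64 in week 1 and 6.17, 6.61 and 7.13 in week 3, a difference of -1.64 ± 0.22. Replicate 5 was the highest week 2 array for both. The ligands Bmp4 (-1.31 ± 0.19) and Tgfb2 (-1.21 ± 0.16), the receptor Bmpr2 (-0.71 ± 0.13) and the antagonist Chrdl1 (-0.71 ± 0.15) also lay below. Id3, a target of BMP signals, overlapped and fell by 1.28 ± 0.23 (adjusted p = 4.1e-05). Of 40 genes of insulin-like growth factors, imprinted growth and FGF signals, 5 (12.5%) lay below and 1 (2.5%) lay above. Those below included the binding protein Igfbp5 (-1.34 ± 0.25), the imprinted gene Ndn (-1.21 ± 0.10) and the receptor Igf1r (-0.73 ± 0.08). The EGF receptor ligand Tgfa (0.54 ± 0.07) was the gene above. The growth factor Igf1 fell by 1.51 ± 0.23 (adjusted p = 7.2e-06) and the imprinted gene Mest by 2.08 ± 0.27 (adjusted p = 7e-07), both with overlap. Of this growth factor list 13 genes were called lower as reported, 3 with arrays scaled to a common interquartile range and 0 with that range as a covariate. For the TGF-beta and BMP list these counts were 5, 5 and 1. Wnt genes lay on both sides. Of 33, 5 (15.2%) lay below and 2 (6.06%) above. Below were the ligands Wnt2b (-1.01 ± 0.15) and Wnt5a (-0.83 ± 0.15), the agonist Rspo2 (-0.91 ± 0.16), the Wnt target Axin2 (-0.84 ± 0.12) and the secreted Dkk3 (-1.10 ± 0.16). The ligands Wnt6 (0.67 ± 0.10) and Wnt7a (0.50 ± 0.09) lay above.

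Structural genes of the sclera itself are given against the 7.47% of all genes that lay below both weeks. None of 11 fibrillar collagens lay below both weeks, and 1, Col3a1, was called lower in the fit and fell by 1.04 ± 0.24 (adjusted p = 0.00062), a call that was lost under quantile normalization, with interquartile range scaling and with the covariate. Of 31 genes of elastic fibres and cross-linking, 8 were lower in the fit and 4 (12.9%) lay below without overlap, namely the fibulin Fbln1 (-1.30 ± 0.16), the latent TGF-beta binding protein Ltbp1 (-0.98 ± 0.20), the prolyl hydroxylase subunit P4ha2 (-0.76 ± 0.11) and the lysyl hydroxylase Plod3 (-0.74 ± 0.10). Mfap2, a microfibril protein, and Loxl1, a lysyl oxidase, fell by 1.65 ± 0.19 (adjusted p = 2e-07) and 1.63 ± 0.24 (adjusted p = 3.4e-06), and in both only week 2 replicate 5 overlapped. Of 36 proteoglycans, 10 were lower in the fit and Spock2 (-1.37 ± 0.19), Spock3 (-1.14 ± 0.11) and Podn (-0.80 ± 0.14) lay below (8.33%). When the interquartile range was a covariate, 1 gene of elastic fibres and cross-linking and 2 proteoglycans were called lower, and with arrays scaled to a common range 6 and 5 were. Lum (lumican), which spaces collagen fibrils, fell by 1.83 ± 0.28 (adjusted p = 7.9e-06) with overlap. Timp3, an inhibitor of metalloproteinases held in the matrix, read 8.93, 8.19, 9.98, 9.81 and 9.53 in week 2, against 9.93 to 10.99 in week 1 and 11.40 to 12.21 in week 3, and fell by 1.89 ± 0.29 (adjusted p = 6.9e-06). Its replicate 3 overlapped week 1. Of the 35 metalloproteinases and inhibitors 5 were called lower, and 0 with the interquartile range as a covariate. Of 39 cadherins and neural adhesion proteins, 7 (17.9%) lay below. They included the secreted guide Reln (-2.09 ± 0.29) and the adhesion molecules Cntn1 (-1.99 ± 0.27), Ncam1 (-1.92 ± 0.21) and Cdh2 (-1.50 ± 0.21).

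Metabolic regulators were among the minima as well. Ppargc1a, a coactivator of mitochondrial and oxidative genes, read 4.73, 4.78, 5.61, 5.72 and 5.33 in week 2, against 7.42, 7.60 and 8.05 in week 1 and 6.05, 6.64 and 6.82 in week 3, a difference of -1.90 ± 0.17. Its relative Ppargc1b differed by -0.84 ± 0.13 and malic enzyme Me1 by -1.36 ± 0.17, and these were the 3 of 16 genes (18.8%) of its network below both weeks. Of 48 respiratory chain genes, 3 (6.25%, against 7.47% of all genes) lay below, Cox5b (-0.81 ± 0.12), Atp5b (-0.74 ± 0.09) and Ndufs7 (-0.70 ± 0.11). The differences of the respiratory chain were under 0 in 48 of 48 genes, with a median of -0.43, and 1 passed the rule for a call. These are bright genes, with a median signal of 8.84, and their median difference was -0.24 under quantile normalization, -0.12 with arrays scaled to a common interquartile range and -0.10 with that range as a covariate, with no call for a lower level in each. A list of 18 genes that were followed by PCR had been chosen on these samples, so it is no independent evidence of direction. In it the motor Myo5a (-1.78 ± 0.29), Tgfb2 and the kinase Fyn (-1.17 ± 0.19) lay below beside Ppargc1a. By PCR, the falls of Ppargc1a and Tgfb2 from the earlier flanking week were small, and the authors could not establish them. Over the same step their PCR values for Neurod1 and Col3a1 fell as on the arrays, with smaller changes. For Ppargc1a, they found that the PCR change to the later flanking week had the same direction as on the arrays. Slc2a1, the glucose transporter of barrier epithelia, read 9.07, 8.74, 9.39, 9.17 and 8.86 in week 2, against 9.93, 10.88 and 11.46 in week 1 and 10.86, 11.24 and 11.53 in week 3, a difference of -2.00 ± 0.19. The hypoxia factor Hif1a differed by -1.45 ± 0.17, and Egln3, a hydroxylase that acts on hypoxia factors, rose by 1.73 ± 0.36 (adjusted p = 0.00022) with overlap. Of 19 clock genes, the repressors Bhlhe41 (-2.56 ± 0.21) and Cry2 (-0.80 ± 0.07) lay below (10.5%, against 7.47% of all genes). The clock gene Per1 overlapped, at 6.65, 6.74, 7.33, 7.71 and 7.22 in week 2, against 7.11 to 7.61 in week 1 and 9.30 to 10.03 in week 3, and its fall of 1.36 ± 0.15 (adjusted p = 8.2e-08) was a difference from week 3 (-2.52, adjusted p = 6e-11) rather than from week 1 (-0.21, adjusted p = 0.28).

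Few genes peaked in week 2 by as much as the minima lay below. Acsm1, a mitochondrial medium-chain acyl-CoA synthetase, read 8.36, 8.43, 8.19, 8.32 and 8.88 in week 2, against 5.43, 6.29 and 7.64 in week 1 and 5.62, 5.67 and 7.66 in week 3, a difference of 2.12 ± 0.44. Rnu3a, a U3 small nucleolar RNA that takes part in the processing of ribosomal RNA, read 7.42, 6.54, 6.93, 7.55 and 6.43 in week 2, against 4.64, 5.11 and 5.73 in week 1 and 5.23, 5.47 and 5.62 in week 3, a difference of 1.68 ± 0.18. Neither gene overlapped, with gaps of 0.53 and 0.69. Vaultrc5, a small RNA of the vault particle, read 7.37, 8.00, 7.34, 9.50 and 7.31 in week 2, against 5.22 to 6.83 in week 1 and 5.30 to 6.16 in week 3, a difference of 2.01 ± 0.32, with replicate 5 the highest. Prr23a1 differed by 1.29 ± 0.13. The other 3 genes that were also higher than each flanking week in the fit were the olfactory receptor Olfr714 (1.14 ± 0.12), the receptor pseudogene Vmn2r-ps104 (1.08 ± 0.17) and the predicted gene Gm21286 (1.05 ± 0.16).

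Single ribosomal, early response and signalling genes gave smaller peaks, in lists whose shares above both weeks were near or under the 5.27% of all genes. Rpl26, a protein of the large ribosomal subunit, read 8.45, 8.34, 8.49, 8.55 and 8.50 in week 2, against 7.05, 7.46 and 7.50 in week 1 and 7.57, 7.75 and 7.82 in week 3, a difference of 0.92 ± 0.07 with a gap of 0.52. Of 53 ribosomal proteins, Rpl26, Rpl7 (0.41 ± 0.09) and Rpl23a (0.36 ± 0.08) lay above both weeks (5.66%), and the list had a median of 0.17. Ribosomal protein genes have near-identical pseudogenes that may share their probes. The transcription factor Fos, an early response gene, read 7.44, 7.53, 7.42, 7.43 and 7.79 in week 2, against 6.16, 6.39 and 6.82 in week 1 and 6.63, 7.07 and 7.25 in week 3, a difference of 0.80 ± 0.12. The nuclear receptor Nr4a2 read 7.70, 7.44, 7.43, 7.48 and 7.63 in week 2, against 6.02, 6.33 and 6.51 in week 1 and 7.05, 7.19 and 7.36 in week 3, a difference of 0.80 ± 0.08. They were the 2 of 37 immediate early and stress genes above both weeks (5.41%), and the chaperone Hspa8 (-0.67 ± 0.09) was the 1 below. Hes5, a target of Notch signals, differed by 0.69 ± 0.09 and the collagenase Mmp13 by 0.59 ± 0.10. Cell cycle genes gave 1 peak among 44 (2.27%), the mitotic kinase Aurka (0.42 ± 0.10).

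**Figure D5:**
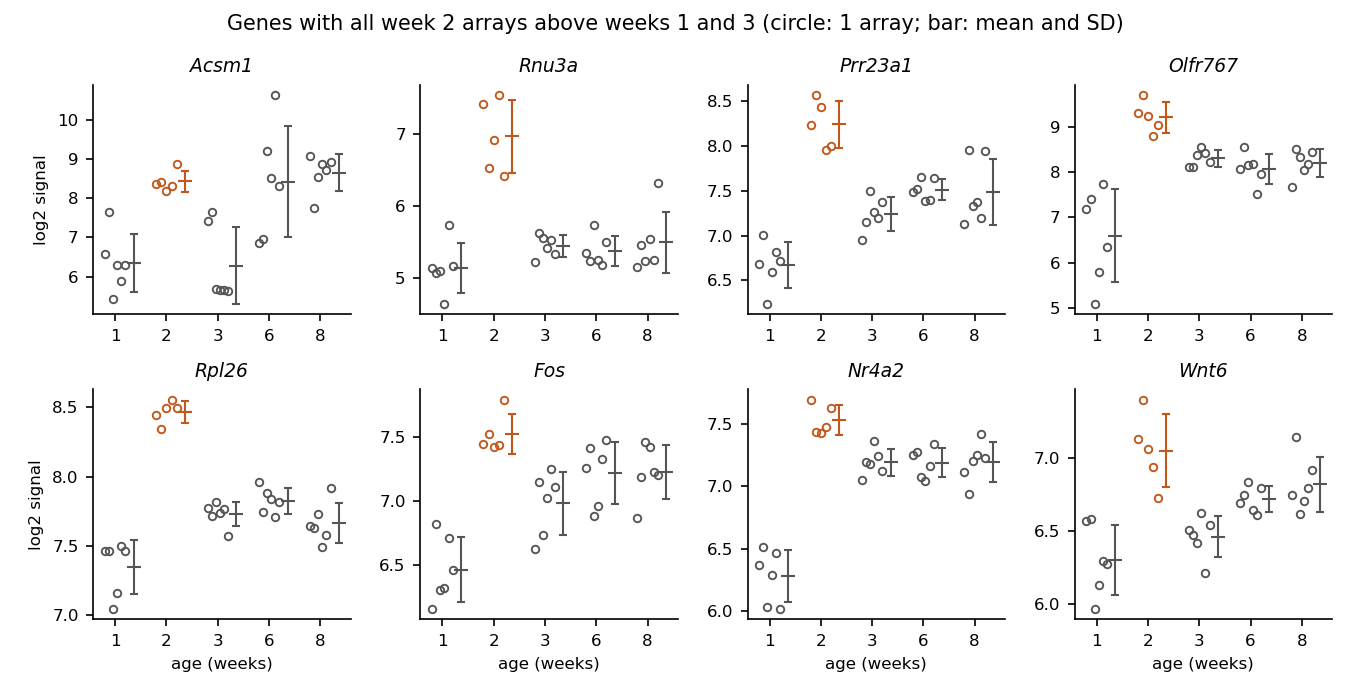
Log2 signal (vertical axes) of 8 genes with all week 2 arrays (orange) above those of weeks 1 and 3, by age in weeks (horizontal axes), with circles for single arrays and bars for mean and SD. The Rpl26 arrays lie at 8.34 to 8.55 in week 2 and at 7.71 to 7.96 in week 6, while Acsm1 reaches 10.65 in week 6.

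Many genes of surface epithelium were higher in week 2 than in week 1, and few were higher than in week 3. Against week 1, 34 of 40 desmosome genes and 32 of 55 ocular surface genes were called higher in limma, and against week 3, 0 and 4 were. The shares of all genes called in these 2 comparisons were not counted, so these counts describe the lists only. The median difference from week 1 was 1.82 for the desmosome list and 1.69 for the ocular surface list, against 0.05 over all genes. From week 3 it was 0.13 and 0.20, against -0.01. Of 40 genes of desmosomes and epithelial junctions, 19 were higher and 1 lower than the mean of the flanking weeks, with a median difference of 0.95, and none was free of overlap. Their mean was 8.15 to 8.95 in week 2, against 6.49 to 7.65 in week 1 and 7.51 to 9.04 in week 3. Of 55 secretory and barrier genes of the ocular surface, 25 were higher and none lower in limma (2 lower at an unadjusted p under 0.05), and none was free of overlap. Of these genes 14 were called higher with the interquartile range as a covariate. Tmprss11a, a serine protease of squamous epithelium, rose by 2.34 ± 0.54 (adjusted p = 0.00056), and its difference from week 3 was 1.49 (adjusted p = 0.046). Dsc3, a desmosomal cadherin, rose by 1.96 ± 0.43 (adjusted p = 0.00035), and its difference from week 3 was 1.06 (adjusted p = 0.073).

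Chemosensory receptors, known for the sensory cells of nose and tongue, gave many of the small peaks. Of 1224 measured, 171 (14%) lay above both flanking weeks and none below. They are dim, with a median signal of 4.02, against 6.54 for all genes. Under quantile normalization 66 of them lay above. With arrays scaled to a common interquartile range 39 lay above and 12 below, where 767 and 1037 of the 19938 genes did. Their mean was 4.52, 4.48, 4.37, 4.09 and 4.23 in week 2, against 3.80 to 3.97 in week 1 and 3.91 to 3.99 in week 3. The median difference of 0.41 was 0.27 under quantile normalization, 0.11 with arrays scaled to a common interquartile range and 0.00 with that range as a covariate. The brightest of those named, Olfr767, read 9.29, 9.70, 9.24, 8.78 and 9.03 in week 2, against 5.09, 6.76 and 7.73 in week 1 and 8.11, 8.29 and 8.54 in week 3. Of 297 microRNA genes, 19 (6.4%) lay above and 2 (0.673%) below, the share above being near the 5.27% of all genes. Of 675 long noncoding RNAs, 84 (12.4%) lay above and 7 (1.04%) below. The microRNA and long noncoding shares were not counted under other scalings. Of 12146 transcript clusters with no symbol, 749 (6.17%) lay above and 382 (3.15%) below.

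Weeks 6 and 8 were not used to choose the genes. For the genes below, the medians of the mean signal were 8.01, 7.08, 7.83, 7.52 and 7.41 in weeks 1, 2, 3, 6 and 8, and for the genes above they were 5.08, 5.75, 5.29, 5.46 and 5.50. In 548 (36.8%) of the genes below, all week 6 arrays lay above every week 2 array, in 266 (17.9%) all week 8 arrays did, and in 118 (7.92%) both did, against 13.9%, 3.85% and 1.73% of all genes. These shares use the week 2 arrays again, which the choice of genes made low. Ptgds stood clear of week 2 at every other age, at 8.82 to 10.54 in week 6 and 7.75 to 9.90 in week 8, and so did Otx2, Slc7a8, Gpnmb, Abca4 and Slc4a4. Later values stayed near those of week 2 for Armcx2, an X-linked armadillo repeat gene, and for the lysosomal enzymes Ctsf and Tpp1. Ctsf averaged 7.46 in week 2, against 8.70 in week 1 and 8.72 in week 3, and 7.57 and 7.47 in weeks 6 and 8. Of the genes above, Rpl26 lay at 7.71 to 7.96 in week 6 and 7.49 to 7.92 in week 8, under every week 2 array.

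The comparison of week 8 with week 6 shares no array with the choice of genes. However, transcripts of the sex chromosomes also separated these weeks, as given below. Its counts were not repeated with the interquartile range as a covariate. Of the genes below, 59 (3.96%) fell and 2 rose in week 8 against week 6 in limma, where 1.13% of all genes fell and 0.226% rose. Of the genes above, none was called in either direction, with 101 higher and 156 lower at an unadjusted p under 0.05 (9.61% and 14.8%). At that level 325 (21.8%) of the genes below were higher and 520 (34.9%) lower, against 15.5% and 27.1% of all genes. Of the pigment epithelium genes 6 of 17 fell, and of the melanocyte genes 7 of 25 fell, with none rising in either list (0 and 1 higher at an unadjusted p under 0.05). Tyr had a lowest, median and highest value of 5.05, 5.76 and 6.74 in week 8, against 6.82, 7.57 and 8.37 in week 6, with no overlap, and fell by 1.66 ± 0.41 (adjusted p = 0.0022). Kcnj13 fell by 1.50 ± 0.42 (adjusted p = 0.0058), Rgr by 1.33 ± 0.51 (adjusted p = 0.042), Otx2 by 1.08 ± 0.29 (adjusted p = 0.0046) and Cltrn by 1.82 ± 0.37 (adjusted p = 0.00032). The clock repressor Bhlhe41 fell by 1.14 ± 0.23 (adjusted p = 0.00026) and Myo5a, the motor that moves melanosomes, by 1.05 ± 0.31 (adjusted p = 0.0094). None of the 41 phototransduction genes was called in either direction, with 0 higher and 2 lower at an unadjusted p under 0.05. Gnat1 differed by 0.22 ± 0.64 (adjusted p = 0.82) and Prph2 by 0.09 ± 0.48 (adjusted p = 0.91). The list means lay at 6.19 to 8.15 in week 8, against 7.85 to 8.80 in week 6, for the pigment epithelium and at 7.02 to 8.18 in week 8, against 7.96 to 8.75 in week 6, for melanocytes. In week 6, replicates 4 and 6 mirrored each other about the mean of that week (the mean of the pair equalled that of the other week 6 arrays within 7.5e-05 at every transcript cluster), so the 6 arrays of week 6 may not be 6 separate measurements. Without these replicates 57 of the genes below fell, and the counts were 5 for the pigment epithelium list and 7 for the melanocyte list.

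Transcripts of the sex chromosomes differed between arrays of the same age. Xist, the RNA of the inactive X chromosome, was brighter than the Y-linked Eif2s3y on 3 of 6 arrays in week 1, 5 of 5 in week 2, 6 of 6 in week 3, 2 of 6 in week 6 and 6 of 6 in week 8. In week 2, Xist read 12.62, 12.70 and 12.66 in replicates 1, 2 and 3, but 6.96 and 7.07 in replicates 5 and 6, where Eif2s3y read 4.83 and 5.42. Of the genes below both flanking weeks 3.56% were on the X chromosome, and of those above 2%, against 3.71% of all genes. Between weeks 6 and 8 both transcripts were free of overlap. Xist read 1.70 to 7.52 in week 6 and 10.05 to 10.48 in week 8, and Eif2s3y 5.90 to 10.38 and 2.41 to 2.77. The part of sex in the values, including those of week 8 against week 6, was not tested.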

How the data were processed

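The deposited table holds log2 signals that the authors made from Affymetrix Mouse Gene 1.0 ST arrays, 30 arrays in all. Robust multi-array averaging with removal of a scan date effect is given in the study's methods, while GCRMA and Partek 6.5 stand in the processing notes of the submitters. Which of them made the values could not be settled. Scan dates are not given in the sources used here. Of 35556 transcript clusters 21789 had 1 gene symbol, 1621 had several and 12146 had none, and 21698 were matched to the gene table. A removed batch effect can make the values of different arrays depend on each other, and the arrays held 23 independent deviations from the week means where 25 would be possible. Week 2 replicate 4, the mean of the other week 2 arrays, was left out, so 29 arrays entered the fit. Arrays of different mice are treated as replicates, and p-values measure the spread between them that is left in the deposited values. Week 6 replicates 4 and 6 were counted as separate arrays. Where deposited values depend on each other, the p-values may be too small.

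One mean per week was fitted to the deposited log2 values in limma 3.58.1 (R 4.3.3) without covariates, with contrasts of week 2 against the mean of weeks 1 and 3, against each of these weeks, and between later weeks. Calls required a Benjamini-Hochberg adjusted p of at most 0.05 over 35556 transcript clusters and a log2 change of at least 1. Figures, counts and the permutation test were made in Python 3.11.15 with scipy 1.17.1. The fit was tested on simulated data. The members and the 46 gene lists were chosen with earlier results of these data known. Named were 247 genes: those with the largest differences among genes without overlap, up to 6 such genes and up to 2 overlapping genes of each list by size of difference, the genes the study measured by PCR and its PGC-1 network, the genes nearest to the limit of no overlap, and those that returned or stayed in weeks 6 and 8. Aqp2, Ms4a1, Stx1a, Wnt7a and Col1a1 were named after their values were seen. Alternatives were other scalings, the spread of each array as a covariate, array weights, a replicate block, other thresholds and filters, and leaving out each array.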

Additional observations from a re-analysis of the deposited data

Results flagged for a closer look

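Of 287 groups tested, being list means and single genes at 1 age, 18 held an array far from the others of its age. Week 8 replicate 2 was high for the list means of retinal transcription factors (6.598), synaptic vesicle genes (6.847) and lens genes (6.565), and low for desmosomes (7.793) and ocular surface genes (7.3). Week 8 replicate 6 was low for the means of insulin-like growth factor and imprinted genes (7.231), glucocorticoid and hypoxia genes (7.54), aquaporins and ion transporters (6.743) and retinoic acid and thyroid hormone genes (7.175). Week 2 replicate 5 was high for lens genes (7.93) and week 2 replicate 3 low for cell cycle genes (6.405). Week 3 replicate 3 was low for ocular surface genes (6.64) and high for the PGC-1 network (6.962). Week 1 replicate 2 was low for aquaporins and ion transporters (6.898), for Otx2 (8.263) and for Rgr (9.542), and week 3 replicate 1 was low for Rgr (8.372). Week 1 replicate 3 was low for Olfr714 (4.323). All values are log2 signals, and chance alone marks about 1 in 20 such groups.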

How the results depend on the processing

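Counts here are of transcript clusters. As reported, 592 were higher and 1321 lower in week 2 than the mean of weeks 1 and 3, 216 were higher and 503 lower than each week, and 2032 lay above and 2071 below without overlap. With arrays scaled to a common interquartile range the counts of higher clusters were 983 against the mean and 449 against each week, where 571 were lower, and under quantile normalization 310 were higher and 449 lower than each week. With the interquartile range as a covariate 357 were higher and 321 lower than the mean, and 28 were higher and 64 lower than each week. Without a fold threshold these counts were 12213 and 10391, and 6739 and 5116. Among clusters above the median signal 380 were higher than the mean, 110 higher than each week and 655 above without overlap, and among those with 1 gene symbol the counts were 213, 23 and 1117. A gap of at least 0.5 was kept by 32 clusters above and 116 below. Leaving out 1 array gave 487 to 818 higher and 1077 to 1609 lower than the mean, 160 to 329 higher and 388 to 648 lower than each week, and 2052 to 4081 above and 2079 to 3031 below without overlap. Without week 2 replicate 5, 329 were higher than each week and 4081 lay above.

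Same-numbered arrays of different weeks correlated at -0.17 to 0.39 in their deviations. Arrays with different numbers were not correlated for comparison, so this does not settle whether same-numbered arrays share a source of variation. They were treated as unpaired. With a replicate block 590 were higher and 1309 lower than the mean and 208 higher and 501 lower than each week. The balance of the counts turned in some settings. More clusters lay above than below without overlap under quantile normalization (1807 and 1396), with interquartile range scaling (2059 and 1621) and without week 2 replicate 5 (4081 and 3031), and more were higher than lower than the mean with the covariate and without a fold threshold. No named gene with a call as reported changed sign, while some without a call did. Of 247 named genes, 109 lost their call and 6 gained one with the covariate, 27 and 10 with interquartile range scaling, and 17 and 6 under quantile normalization. The cause of these shifts was not tested. Counting week 2 replicate 4 as a sixth array, or leaving out week 6 replicates 4 and 6, was chosen after seeing the data and changed the call of no named gene. The number of arrays, 5 in week 2 and 6 in each other week, limits the precision.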
